A study of Mus musculus with 9 samples.

Results

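Ribosome biogenesis and nucleolar factors are the proteins that transcribe, cut, modify and assemble ribosomal RNA into ribosomal subunits. A list of 52 mouse genes of this kind was looked up by gene symbol among array probe sets that carry exactly 1 symbol, and 48 of the 52 genes were found among the 12393 genes measured. Dkc1, Wdr3, Nob1 and Mrto4 are not analysed here. Where a gene had several probe sets, the one used was chosen by its mean level, the highest over all 9 arrays. The list itself was selected on gene function with earlier results of these arrays known, so the counts of changed genes below describe the list and are no independent support for its direction.

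The cells were dendritic cells (DC), the antigen-presenting cells that prime T cells, and they were expanded in the spleens of mice 6 to 8 weeks old by B16 melanoma tumours that express the growth factor Flt3L. They were enriched with magnetic beads against CD11c, an integrin of DC, and compared in 3 groups of 3 arrays each: butyrate treated, TSA (trichostatin A) treated and untreated. Both agents are inhibitors of histone deacetylases, which take acetyl groups off histones, and the series asks how gene expression differs under them. The labels give no strain, sex, dose or duration, and whether replicates came from separate mice or cultures is not said either, so p-values measure only the spread between these arrays, which may be technical. Values are log2 expression levels, on which a difference of 1 is a 2-fold change.

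Ribosomes are made in the nucleolus. RNA polymerase I transcribes a long precursor RNA from the ribosomal DNA repeats, small nucleolar ribonucleoproteins (snoRNPs) guide its chemical modification, and large sets of assembly factors, helicases and nucleases turn it into the small (40S) and large (60S) subunits. Demand for these factors is high in growing cells, and many of their genes are known targets of the transcription factor MYC, which binds the E-box sequence CACGTG.

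Most of the list was lower with butyrate than with TSA. Of the 48 genes, 34 were lower with butyrate than with TSA and 0 were higher (limma, adjusted p under 0.05), where 20.0% of all 12393 genes were lower and 15.9% higher. At an unadjusted p under 0.05 the counts were 38 lower and 1 higher. The median difference between butyrate and TSA was -0.42 for the list and 0.03 for all genes. Relative to untreated cells, with butyrate 24 genes fell and 9 rose, and with TSA 3 fell and 24 rose. All genes gave 24.8% lower and 33.6% higher with butyrate, and 21.0% lower and 26.3% higher with TSA. The shares of all genes are also the comparison for the counts by role and for other lists below. By arrays that did not overlap, 39 of the 48 genes lay lower and 2 higher with butyrate than with TSA (25.8% and 24.5% of all genes), 29 lower and 9 higher with butyrate than in untreated cells (26.2% and 36.5%), and 3 lower and 29 higher with TSA than in untreated cells (23.9% and 31.0%). The comparisons of each treatment with untreated cells use the same untreated arrays; the comparison of butyrate with TSA does not use them for its means.

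**Figure D1:**
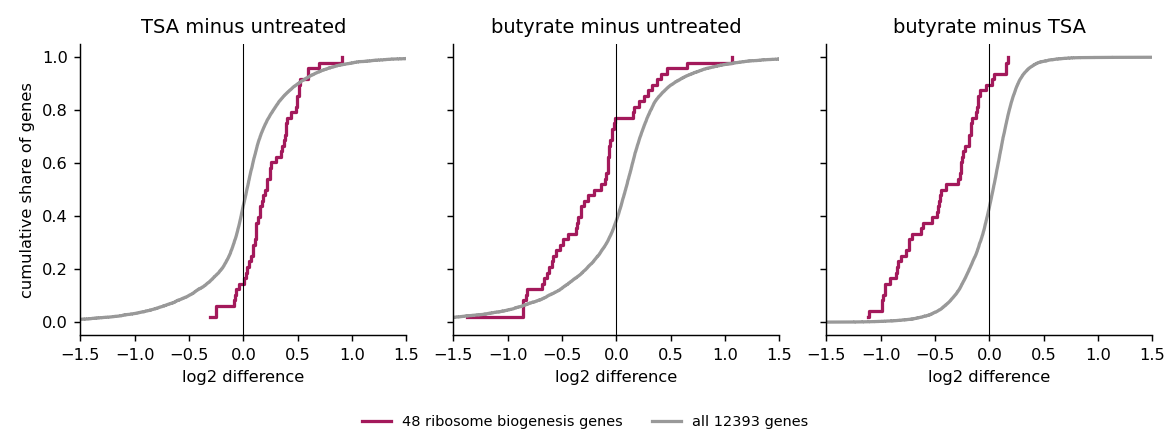
Cumulative share of genes (vertical axis) by log2 difference (horizontal axis, drawn from -1.5 to 1.5) in 3 panels: TSA against untreated, butyrate against untreated and butyrate against TSA. The coloured line is the 48 ribosome biogenesis genes and the grey line all 12393 genes. In the last panel the list lies left of all genes, with medians of -0.42 and 0.03.

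The genes of the list were brighter than most. Their mean levels ran from 5.26 to 12.01 with a median of 7.88, against a median of 7.12 over all genes, and 37 of the 48 lay above that median. Among all genes above it, 33.7% were lower and 17.1% higher with butyrate than with TSA, and of the 37 members 26 were lower and 0 higher, or 70.3% lower. In the same subset 18 fell and 7 rose with butyrate (38.7% and 37.2% of bright genes) and 1 fell and 20 rose with TSA (30.8% and 39.4%). The mean level of the 48 genes exceeded that of all genes by 0.64, 0.63 and 0.65 on the 3 butyrate arrays, by 1.11, 1.06 and 1.10 on the TSA arrays and by 0.87, 0.87 and 0.87 on the untreated arrays. The 3 groups did not overlap in this measure.

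The scale of the butyrate arrays needs care. Bacterial transcripts added as hybridization spike-ins averaged 10.78 ± 0.06 (SD, n = 3) on the butyrate arrays, 10.38 ± 0.03 on the TSA arrays and 10.37 ± 0.08 on the untreated arrays. After shifting the arrays to equal spike-ins, 47 of the 48 genes were lower with butyrate than with TSA, and so were 81.1% of all genes. The median of the list relative to that of all genes was -0.456 for butyrate minus TSA, -0.258 for butyrate minus untreated and 0.175 for TSA minus untreated. These values are the same on either scale by arithmetic, because the scaling shifts all genes of an array alike, and they are no check of the scale. Differences below are on the deposited scale. On the spike-in scale each difference between butyrate and untreated cells is lower by 0.42, so that rises with butyrate smaller than this turn negative, for genes outside the list too.

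Other features of the arrays also moved with treatment, and their part in these differences was not tested. The mean level of 11 measured DC markers was 11.19 to 11.21 with butyrate, 11.32 to 11.34 with TSA and 11.58 to 11.63 in untreated cells, and these genes were bright in every group. Markers of macrophages and monocytes (9 measured) averaged 7.59 to 7.77, 7.83 to 7.94 and 8.63 to 8.77 in the same order, and neutrophil markers (8) 10.54 to 10.56, 10.24 to 10.33 and 10.87 to 10.92. Erythroid markers (5) averaged 8.85 to 8.91, 8.65 to 8.72 and 9.15 to 9.27, B cell markers (8) 6.21 to 6.25, 6.00 to 6.10 and 6.36 to 6.42, T cell markers (9) 6.34 to 6.35, 6.27 to 6.35 and 6.81 to 6.90, NK cell markers (7) 6.25 to 6.33, 6.47 to 6.54 and 6.79 to 6.88, and B16 melanoma markers (8) 5.40 to 5.48, 5.29 to 5.43 and 5.39 to 5.44, with 4 of the 8 under a level of 5. In such mixed samples, fewer cells of a type and less RNA per cell cannot be told apart. A list mean can also rest on few genes. With butyrate, the T cell markers had a median difference from untreated cells of -0.06 and a lowest of -3.63. The neutrophil markers had -0.21 and -2.02. With TSA these values were -0.33 and -2.61 for T cell markers and -0.55 and -2.14 for neutrophil markers. Of proliferation genes, 13 measured ones averaged 9.23 to 9.28 with butyrate, 9.29 to 9.33 with TSA and 9.21 to 9.27 in untreated cells. The 3′ minus 5′ difference of beta-actin probe sets, a sign of RNA integrity, was 0.68 ± 0.04 with butyrate, 0.64 ± 0.04 with TSA and 0.43 ± 0.07 in untreated cells (SD, n = 3 arrays each), and that of Gapdh was 0.22 ± 0.04, 0.19 ± 0.02 and 0.16 ± 0.01 in the same order.

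Promoters were compared because many of these genes moved together. RefSeq promoters (GRCm38.p6, 250 bases before to 50 after the annotated start) were matched by symbol for 41 of the 48 genes, and each motif was searched on both strands. The E-box CACGTG was present in 10 of the 41 promoters, or 24.4%, against 9.33% of 9887 promoters of measured genes and 7.24% of all 27025. The ETS motif CCGGAAG was present in 16 of the 41, or 39.0%, against 15.0% of measured genes, and the GC box GGGCGG in 73.2% against 57.5%. CCAAT occurred in 39.0% against 38.1%, and GATGGCGG, a YY1 motif, in 7.32% against 2.97%. The NRF1 motif was in 0 of the 41 windows, and in 1.61% of those of measured genes. Of the 28 promoters of genes lower with butyrate than with TSA, 8 held an E-box and 12 the ETS motif, against 2 and 4 of the other 13. These letters are a description of the windows and do not show binding.

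The 250 bases before the start are shown for the genes with the largest fall with butyrate (Utp20), the largest fall with TSA (Ddx52) and the largest rise with both (Nop10), and for 3 genes with an E-box before the start, with E-boxes and ETS motifs in capitals on whichever strand they were found. Utp18 has an E-box at -20 and Nop2 one at -60 relative to the start, each with an ETS motif, and Imp4 has one at -121. Utp20 holds its E-box after the start, at position 37, outside the stretch shown, and the windows of Ddx52 and Nop10 hold neither motif.
Utp18 (chr11:93885767-93886016, - strand): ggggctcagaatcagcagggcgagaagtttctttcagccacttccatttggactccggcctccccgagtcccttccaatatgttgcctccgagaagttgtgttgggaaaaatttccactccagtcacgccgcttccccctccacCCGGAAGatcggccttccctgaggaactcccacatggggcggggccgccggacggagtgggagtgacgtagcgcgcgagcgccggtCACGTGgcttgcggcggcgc
Nop2 (chr6:125131633-125131882, + strand): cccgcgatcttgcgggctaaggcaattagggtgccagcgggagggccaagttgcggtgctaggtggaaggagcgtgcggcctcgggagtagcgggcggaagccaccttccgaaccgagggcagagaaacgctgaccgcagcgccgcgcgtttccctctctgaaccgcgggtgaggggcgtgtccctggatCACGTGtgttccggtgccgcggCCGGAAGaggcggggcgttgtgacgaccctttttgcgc
Imp4 (chr1:34439579-34439828, + strand): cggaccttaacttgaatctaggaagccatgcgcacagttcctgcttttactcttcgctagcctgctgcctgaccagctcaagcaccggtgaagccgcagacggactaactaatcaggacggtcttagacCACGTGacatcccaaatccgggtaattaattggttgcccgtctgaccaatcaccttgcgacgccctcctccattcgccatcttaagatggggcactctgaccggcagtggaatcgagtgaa
Utp20 (chr10:88826815-88827064, - strand): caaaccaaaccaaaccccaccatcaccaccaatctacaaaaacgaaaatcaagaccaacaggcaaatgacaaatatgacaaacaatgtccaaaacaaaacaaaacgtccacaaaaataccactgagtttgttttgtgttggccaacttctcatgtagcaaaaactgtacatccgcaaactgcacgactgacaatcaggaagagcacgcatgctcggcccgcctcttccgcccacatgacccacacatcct
Ddx52 (chr11:83941840-83942089, + strand): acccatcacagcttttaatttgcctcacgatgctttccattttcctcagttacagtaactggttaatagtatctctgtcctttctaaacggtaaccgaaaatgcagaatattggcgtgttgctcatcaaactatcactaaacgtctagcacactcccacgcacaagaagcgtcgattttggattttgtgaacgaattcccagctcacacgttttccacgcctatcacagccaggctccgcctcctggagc
Nop10 (chr2:112261676-112261925, + strand): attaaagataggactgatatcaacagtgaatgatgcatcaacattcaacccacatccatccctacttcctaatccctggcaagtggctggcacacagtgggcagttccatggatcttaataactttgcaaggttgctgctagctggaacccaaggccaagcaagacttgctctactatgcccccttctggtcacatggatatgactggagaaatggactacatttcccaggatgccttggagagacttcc

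RNA polymerase I was represented by its 2 largest subunits, and they differed from each other. Polr1a, the catalytic subunit (chr6:71909053-71979435), had log2 levels of 6.94, 6.72 and 6.95 with butyrate, 6.72, 6.69 and 6.71 with TSA and 6.16, 6.51 and 6.54 in untreated cells. It rose with both treatments, by 0.47 ± 0.100 with butyrate (limma adjusted p = 0.00234) and 0.30 ± 0.100 with TSA (limma adjusted p = 0.03), and neither group overlapped the untreated arrays. The first untreated array lay lowest of all 9. On the hybridization spike-in scale the butyrate difference of Polr1a was 0.05 and not called. The TSA call was lost on leaving out any 1 of 4 arrays, with a difference of 0.18 without untreated replicate 1 (limma adjusted p = 0.0778), and the 2 further probe sets of Polr1a gave 0.15 and 0.03 with TSA, neither called. Polr1b, the second-largest subunit, had dim log2 levels of 5.24, 5.17 and 5.07 with butyrate, 5.30, 5.32 and 5.63 with TSA and 5.11, 5.23 and 5.25 in untreated cells. It was not called against untreated cells with either treatment (log2 differences of -0.04 ± 0.088 and 0.22 ± 0.088), and was lower with butyrate than with TSA (-0.26 ± 0.088, limma adjusted p = 0.0443), a call lost on leaving out any 1 of 6 arrays (-0.15 without TSA replicate 3).

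Further subunits of RNA polymerase I and factors that act with it, outside the list, mostly rose with TSA and moved in both directions with butyrate. Of 16 measured, 9 rose and 6 fell with butyrate, or 56.2% and 37.5%, against 33.6% and 24.8% of all genes. With TSA 10 rose and 2 fell, or 62.5% and 12.5%, against 26.3% and 21.0%. The median log2 difference was 0.21 with butyrate and 0.37 with TSA. Polr1d, a subunit shared by RNA polymerases I and III, averaged 11.18 ± 0.01 with butyrate, 10.87 ± 0.02 with TSA and 10.02 ± 0.06 in untreated cells (SD, n = 3 log2 levels each), a rise of 1.16 ± 0.047 and 0.85 ± 0.047. Znrd1, the small RNA polymerase I subunit, rose by 0.91 ± 0.054 and 0.79 ± 0.054, and Polr2h, shared by all nuclear polymerases, by 0.40 ± 0.052 and 0.87 ± 0.052 on the log2 scale. Ubtf, the factor that binds ribosomal DNA and recruits the polymerase, moved the other way: it averaged 8.53 ± 0.11 with butyrate, 8.67 ± 0.06 with TSA and 9.21 ± 0.08 in untreated cells, and fell with both (log2 differences of -0.68 ± 0.069 and -0.54 ± 0.069, limma adjusted p = 1.16e-05 and 7.53e-05). Rrn3, the initiation factor that links growth signals to RNA polymerase I, fell with butyrate (-0.46 ± 0.086, limma adjusted p = 0.000961) and was not called with TSA (0.09 ± 0.086). Tcof1, a nucleolar scaffold of this transcription, rose with both (0.25 ± 0.068 and 0.34 ± 0.068).

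The box C/D snoRNPs carry out 2′-O-methylation of ribosomal RNA, and their 3 measured core proteins were all lower with butyrate than with TSA. Fbl, the methyltransferase fibrillarin, had log2 levels of 10.44, 10.39 and 10.45 with butyrate, 10.92, 10.91 and 10.86 with TSA and 10.51, 10.49 and 10.53 in untreated cells. The 3 groups did not overlap: Fbl rose with TSA by 0.39 ± 0.045, limma adjusted p = 3.72e-05, and its log2 difference with butyrate was -0.08 ± 0.045 (limma adjusted p = 0.169). Nop58, a scaffold of the same particle, had log2 levels of 8.52, 8.58 and 8.48 with butyrate, 9.24, 9.16 and 9.02 with TSA and 8.77, 8.62 and 8.26 in untreated cells. It rose with TSA (0.59 ± 0.112, limma adjusted p = 0.00125), while the butyrate arrays lay within the wide range of the untreated ones. Nop56, the partner of Nop58, had log2 levels of 9.08, 9.19 and 9.13 with butyrate, 9.35, 9.34 and 9.28 with TSA and 9.21, 9.25 and 9.18 in untreated cells. On the probe set used, its log2 differences from untreated cells were not called (-0.08 ± 0.049 with butyrate and 0.11 ± 0.049 with TSA). Its difference between butyrate and TSA was called (-0.19 ± 0.049, limma adjusted p = 0.0139), except without butyrate replicate 1 (-0.16). A second probe set of Nop56 (mean level 8.69) rose with TSA (0.21, limma adjusted p = 0.0328 over all probe sets) and was not called with butyrate (-0.11).

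The box H/ACA snoRNPs convert uridine to pseudouridine, and their small proteins split. Nop10 (chr2:112261926-112262898), which binds the catalytic subunit dyskerin, had log2 levels of 11.30, 11.29 and 11.27 with butyrate, 11.11, 11.14 and 11.14 with TSA and 10.11, 10.24 and 10.32 in untreated cells. Both treated groups lay above every untreated array, and Nop10 had the largest rise of the list with either treatment: 1.06 ± 0.056, limma adjusted p = 9.68e-08 with butyrate, a 2.09-fold rise, and 0.91 ± 0.056, limma adjusted p = 4.01e-07 with TSA. Gar1, another core protein of the particle, had log2 levels of 6.97, 6.88 and 6.91 with butyrate, 7.73, 8.03 and 7.98 with TSA and 7.77, 7.81 and 7.74 in untreated cells. With butyrate it fell below all other arrays (-0.86 ± 0.074, limma adjusted p = 3.3e-06), and with TSA its arrays overlapped the untreated ones (0.14 ± 0.074). Nhp2, the RNA-binding protein of the particle, behaved like Gar1 in this respect, falling with butyrate (-0.62 ± 0.058, limma adjusted p = 6.22e-06) with a log2 difference of 0.01 ± 0.058 under TSA.

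Of 9 measured snoRNP assembly factors outside the list, 5 rose and 3 fell with butyrate (33.6% and 24.8% of all genes). With TSA 6 rose and 1 fell (26.3% and 21.0% of all genes). Pih1d1, part of the R2TP cochaperone that builds snoRNPs, averaged 7.69 ± 0.22 with butyrate, 7.57 ± 0.15 with TSA and 8.97 ± 0.06 in untreated cells (SD, n = 3 log2 levels each), and fell by more than 2-fold with both (log2 differences of -1.28 ± 0.108 and -1.40 ± 0.108). Naf1, an assembly factor of H/ACA particles, rose by 0.24 ± 0.062 with butyrate and 0.80 ± 0.062 with TSA, and Rpap3, another R2TP subunit, by 0.49 ± 0.048 and 0.73 ± 0.048 on the log2 scale.

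The small-subunit processome is the large particle that forms on the 5′ part of the precursor RNA and makes the 40S subunit. Of the 18 measured genes on the list that were grouped as processome and 40S assembly, 10 fell and 3 rose with butyrate. With TSA 3 fell and 8 rose, and 13 were lower and 0 higher with butyrate than with TSA. Utp20, a very large scaffold protein of this particle (chr10:88746607-88826814), had the lowest butyrate level relative to untreated cells. Its log2 levels were 6.15, 6.34 and 6.33 with butyrate, 7.47, 7.22 and 7.49 with TSA and 7.72, 7.49 and 7.72 in untreated cells. The butyrate arrays lay more than 2-fold below both other groups, with log2 differences of -1.37 ± 0.092, limma adjusted p = 5.34e-07 against untreated cells and -1.12 ± 0.092, limma adjusted p = 2.48e-05 against TSA, and Utp20 also fell slightly with TSA (-0.25 ± 0.092, limma adjusted p = 0.0444). Heatr1, the homologue of yeast Utp10 that is needed for early transcription and processing, had log2 levels of 6.88, 6.99 and 7.00 with butyrate, 7.97, 7.83 and 8.00 with TSA and 7.76, 7.75 and 7.93 in untreated cells. It fell with butyrate (-0.86 ± 0.070, limma adjusted p = 2.12e-06), and its log2 difference with TSA, 0.12 ± 0.070, was not called. Ltv1, a factor of late 40S maturation, had log2 levels of 7.26, 7.20 and 7.48 with butyrate, 8.36, 8.18 and 8.15 with TSA and 8.07, 8.23 and 8.13 in untreated cells. Its butyrate arrays also stood below every other array (-0.83 ± 0.085, limma adjusted p = 1.2e-05), with a TSA difference of 0.08 ± 0.085.

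Several genes of this group were called in opposite directions. Ddx10, an RNA helicase (chr9:53098454-53248170), had log2 levels of 6.92, 7.05 and 7.27 with butyrate, 8.15, 7.90 and 8.14 with TSA and 7.41, 7.68 and 7.62 in untreated cells. The 3 groups did not overlap. Ddx10 fell with butyrate (-0.49 ± 0.106, limma adjusted p = 0.00252) and rose with TSA (0.49 ± 0.106, limma adjusted p = 0.00279). It differed between butyrate and TSA by -0.99 ± 0.106, limma adjusted p = 0.000106. A second probe set of Ddx10 (mean level 7.43) was not called against untreated cells with either treatment (-0.26 with butyrate and 0.38 with TSA). Wdr75, the homologue of yeast Utp17, had log2 levels of 7.40, 7.40 and 7.55 with butyrate, 8.18, 8.12 and 8.19 with TSA and 7.86, 7.85 and 7.76 in untreated cells. It showed the same order of groups, with -0.37 ± 0.057, limma adjusted p = 0.000251 for butyrate and 0.34 ± 0.057, limma adjusted p = 0.000513 for TSA. Noc4l, whose yeast homologue works with that of Nop14 in 40S export, had log2 levels of 7.46, 7.42 and 7.56 with butyrate, 7.88, 7.94 and 7.99 with TSA and 7.61, 7.80 and 7.80 in untreated cells. Its log2 differences were smaller, -0.26 ± 0.066, limma adjusted p = 0.00704 for butyrate and 0.20 ± 0.066, limma adjusted p = 0.032 for TSA, although no arrays of different groups overlapped. Its TSA call was lost on leaving out any 1 of 3 arrays (0.13 without untreated replicate 1).

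**Figure D2:**
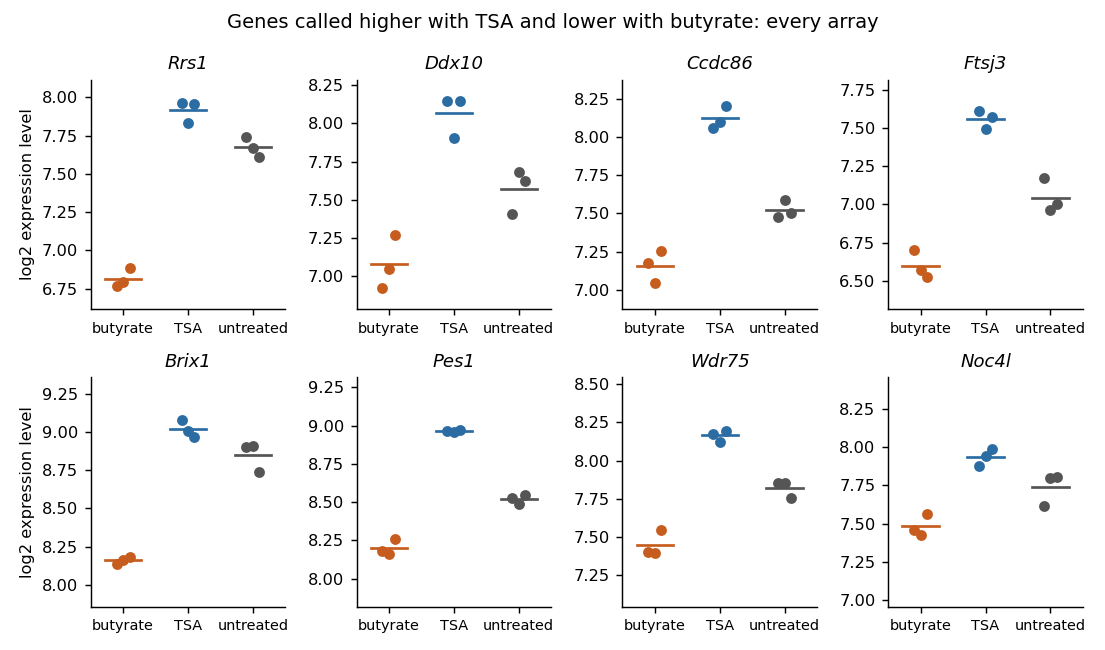
Log2 expression level of each array (points) and group mean (lines) for 8 genes. On the probe sets used, each was called higher with TSA and lower with butyrate. Groups run butyrate, TSA and untreated from left to right. Each panel spans 1.5 log2 units on its own axis. In every panel the butyrate arrays lie lowest, the untreated ones between and the TSA arrays highest, without overlap.

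A group of 3 small-subunit genes rose with both treatments. Nop14 had log2 levels of 8.03, 8.05 and 8.02 with butyrate, 8.28, 8.33 and 8.25 with TSA and 7.77, 7.78 and 7.77 in untreated cells. It rose with both treatments, by 0.26 ± 0.044 with butyrate and 0.51 ± 0.044 with TSA. Bysl, a late 40S factor, had log2 levels of 7.52, 7.35 and 7.41 with butyrate, 7.48, 7.51 and 7.62 with TSA and 7.13, 6.95 and 7.07 in untreated cells, and rose by 0.38 ± 0.066 and 0.49 ± 0.066. Imp3, a partner of the U3 snoRNA, rose by 0.21 ± 0.061 and 0.38 ± 0.061 on the log2 scale, and its butyrate call was lost on leaving out either of 2 arrays (0.16 without butyrate replicate 1). Scaled to the hybridization spike-ins, the butyrate differences of Nop14, Bysl and Imp3 turned to -0.16, -0.04 and -0.21.

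On the probe sets used, the helicase Ddx52 and the WD-repeat protein Pwp2 (yeast Utp1) joined Utp20 as the only genes of the list that fell with TSA. A further probe set of the large-subunit gene Grwd1 also fell with TSA (-0.49, limma adjusted p = 0.00336 over all probe sets). Its other probe sets, with the one used among them, gave -0.07 each and were not called. Ddx52 had log2 levels of 7.73, 7.85 and 7.77 with butyrate, 8.10, 8.06 and 8.01 with TSA and 8.36, 8.43 and 8.29 in untreated cells. It fell with both, and the 3 groups did not overlap (log2 differences of -0.58 ± 0.056, limma adjusted p = 7.71e-06 with butyrate and -0.30 ± 0.056, limma adjusted p = 0.000974 with TSA). Pwp2 had log2 levels of 6.62, 6.53 and 6.71 with butyrate, 6.62, 6.75 and 6.80 with TSA and 6.86, 6.89 and 7.17 in untreated cells, with differences of -0.35 ± 0.088, limma adjusted p = 0.00589 for butyrate and -0.25 ± 0.088, limma adjusted p = 0.039 for TSA. The TSA calls of Utp20 and Pwp2 lie near the threshold and were lost on leaving out any 1 of 6 and of 4 arrays (-0.17 without TSA replicate 2 for Utp20 and -0.15 without untreated replicate 3 for Pwp2). The other small-subunit genes ranged from -0.63 ± 0.082 (Tsr1, a GTPase-like 40S factor) to 0.15 ± 0.090 (Rrp9, a U3 snoRNP protein, not called) with butyrate, and from 0.03 ± 0.058 (Utp18, not called) to 0.40 ± 0.065 (Imp4, another U3 partner) with TSA on the log2 scale.

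Of 35 measured small-subunit factors outside the list, 17 fell and 9 rose with butyrate, 5 fell and 16 rose with TSA, and 24 were lower and 0 higher with butyrate than with TSA. Pno1, a partner of Nob1 at the 3′ end of 18S rRNA, averaged 8.23 ± 0.03 with butyrate, 9.32 ± 0.04 with TSA and 9.05 ± 0.04 in untreated cells (SD, n = 3 log2 levels each), a difference of -1.10 ± 0.046, limma adjusted p = 2.92e-06 between butyrate and TSA. Nol11 fell with both treatments (-1.07 ± 0.080 and -0.29 ± 0.080), and Utp4 rose with both (0.44 ± 0.053 and 0.86 ± 0.053) on the log2 scale.

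In the large-subunit group, factors that assemble the 60S subunit, 10 of 17 genes fell and 3 rose with butyrate, 0 fell and 10 rose with TSA (0 fell at an unadjusted p under 0.05), and 13 were lower and 0 higher with butyrate than with TSA. Rrs1, which brings the 5S RNA particle into the precursor (chr1:9545408-9547455), had log2 levels of 6.77, 6.79 and 6.88 with butyrate, 7.96, 7.84 and 7.96 with TSA and 7.74, 7.67 and 7.61 in untreated cells. It fell with butyrate (-0.86 ± 0.059, limma adjusted p = 5.91e-07) and rose with TSA (0.24 ± 0.059, limma adjusted p = 0.00544), which puts butyrate 2.15-fold below TSA (-1.10 ± 0.059, limma adjusted p = 5.43e-06). Brix1, another large-subunit assembly factor, had log2 levels of 8.14, 8.17 and 8.18 with butyrate, 9.08, 9.01 and 8.97 with TSA and 8.90, 8.91 and 8.74 in untreated cells. Its fall with butyrate (-0.69 ± 0.058, limma adjusted p = 2.71e-06) was clear, and its rise with TSA was near the threshold (0.17 ± 0.058, limma adjusted p = 0.0342) and lost on leaving out any 1 of 3 arrays (0.11 without untreated replicate 3). Ftsj3, a methyltransferase of precursor rRNA, had log2 levels of 6.70, 6.57 and 6.52 with butyrate, 7.61, 7.49 and 7.57 with TSA and 7.17, 6.96 and 7.00 in untreated cells. The groups were separate, with -0.45 ± 0.070, limma adjusted p = 0.000294 for butyrate and 0.51 ± 0.070, limma adjusted p = 0.000128 for TSA.

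Pes1, Bop1 and Wdr12 form the PeBoW complex, which is needed to process the large-subunit RNA, yet they moved by different amounts. Pes1 had log2 levels of 8.18, 8.16 and 8.26 with butyrate, 8.96, 8.96 and 8.97 with TSA and 8.53, 8.49 and 8.55 in untreated cells. It fell with butyrate (-0.32 ± 0.046, limma adjusted p = 0.000159) and rose with TSA (0.44 ± 0.046, limma adjusted p = 1.81e-05). A dimmer probe set of Pes1 (mean level 6.59) rose with TSA (0.72) and was not called with butyrate (-0.06). Wdr12 had log2 levels of 6.94, 7.41 and 7.14 with butyrate, 7.80, 7.54 and 7.73 with TSA and 6.92, 7.14 and 6.93 in untreated cells. It rose with TSA (0.70 ± 0.116, limma adjusted p = 0.000517) and was not called with butyrate (0.17 ± 0.116), where its arrays overlapped the untreated ones. Bop1 fell with butyrate (-0.30 ± 0.074, limma adjusted p = 0.00553) and had a log2 difference of -0.08 ± 0.074 with TSA. All 3 were lower with butyrate than with TSA on the probe sets used. For Bop1 that call (-0.22 ± 0.074, limma adjusted p = 0.039) was lost on leaving out any 1 of 6 arrays. A dimmer second probe set of Wdr12 gave 0.07 and was not called, against -0.53 ± 0.116 on the one used. The same dimmer probe set gave 0.20 with TSA against untreated cells, also not called.

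On the probe sets used, other large-subunit genes fell with butyrate and were not called with TSA. Ebna1bp2, whose yeast homologue binds that of Rrs1, had log2 levels of 7.70, 7.70 and 7.79 with butyrate, 8.47, 8.51 and 8.44 with TSA and 8.59, 8.49 and 8.58 in untreated cells. Its butyrate arrays lay below all others (-0.82 ± 0.051, limma adjusted p = 2.9e-07), with a TSA difference of -0.08 ± 0.051. Gnl3, the nucleolar GTPase nucleostemin, had log2 levels of 7.75, 7.77 and 7.80 with butyrate, 8.55, 8.46 and 8.53 with TSA and 8.33, 8.49 and 8.51 in untreated cells, and fell with butyrate (-0.66 ± 0.057, limma adjusted p = 3.11e-06; TSA difference 0.07 ± 0.057). The helicase Ddx18, the histone-binding Grwd1 and the 60S factor Nip7 fell with butyrate, with log2 differences of -0.60 ± 0.092, -0.52 ± 0.075 and -0.20 ± 0.052.

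Rises with both treatments were seen for Rrp1b, Nop2 and Nop16. Rrp1b, a regulatory subunit for a nucleolar phosphatase, had log2 levels of 7.33, 7.46 and 7.24 with butyrate, 7.24, 7.29 and 7.03 with TSA and 6.80, 6.65 and 6.64 in untreated cells. It rose by 0.65 ± 0.084 with butyrate and 0.49 ± 0.084 with TSA, so that neither treated group overlapped the untreated arrays. Nop2, a methyltransferase of the large ribosomal RNA, had log2 levels of 8.08, 7.95 and 8.00 with butyrate, 7.93, 7.97 and 8.05 with TSA and 7.62, 7.51 and 7.68 in untreated cells, and rose by 0.41 ± 0.061 and 0.38 ± 0.061. Nop16 had log2 levels of 8.30, 8.24 and 8.35 with butyrate, 8.48, 8.44 and 8.55 with TSA and 7.78, 8.11 and 8.01 in untreated cells, and rose by 0.33 ± 0.079 and 0.52 ± 0.079. On the hybridization spike-in scale Nop2 and Nop16 stood at -0.01 and -0.08 with butyrate, while Rrp1b and Nop10 stayed called as higher. The remaining large-subunit genes, Gnl2, Noc2l and Noc3l, were not called with butyrate on the probe sets used, at -0.04 ± 0.058, -0.08 ± 0.051 and -0.06 ± 0.056. Gnl2 and Noc3l rose with TSA by 0.36 ± 0.058 and 0.19 ± 0.056 on the log2 scale. The call of Noc3l was lost on leaving out either of 2 arrays (0.15 without untreated replicate 1). A dimmer probe set of Gnl2 (mean level 6.22) fell with butyrate (-0.52, limma adjusted p = 0.0014 over all probe sets) and was not called with TSA (-0.10). Another (8.04) was not called with butyrate (0.09) and rose with TSA (0.30).

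Of 39 measured large-subunit factors outside the list, 13 fell and 12 rose with butyrate, 5 fell and 21 rose with TSA, and 25 were lower and 2 higher with butyrate than with TSA. Rrp15 averaged 5.48 ± 0.24 with butyrate, 6.63 ± 0.04 with TSA and 6.82 ± 0.06 in untreated cells (SD, n = 3 log2 levels each), and fell with butyrate (log2 difference -1.34 ± 0.102). Mdn1, a giant ATPase that strips factors from the nascent 60S particle, fell with butyrate (-0.96 ± 0.113, limma adjusted p = 3.52e-05) with a TSA difference of 0.14 ± 0.113, and Las1l, which cuts between the large-subunit RNAs, rose by 0.32 ± 0.061 with butyrate and 0.87 ± 0.061 with TSA. Over the 4 lists of factors outside the 48 genes, 99 genes in all, 63 were lower and 3 higher with butyrate than with TSA, with a median log2 difference of -0.24. Those lists were also chosen with results of these arrays known.

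**Figure D3:**
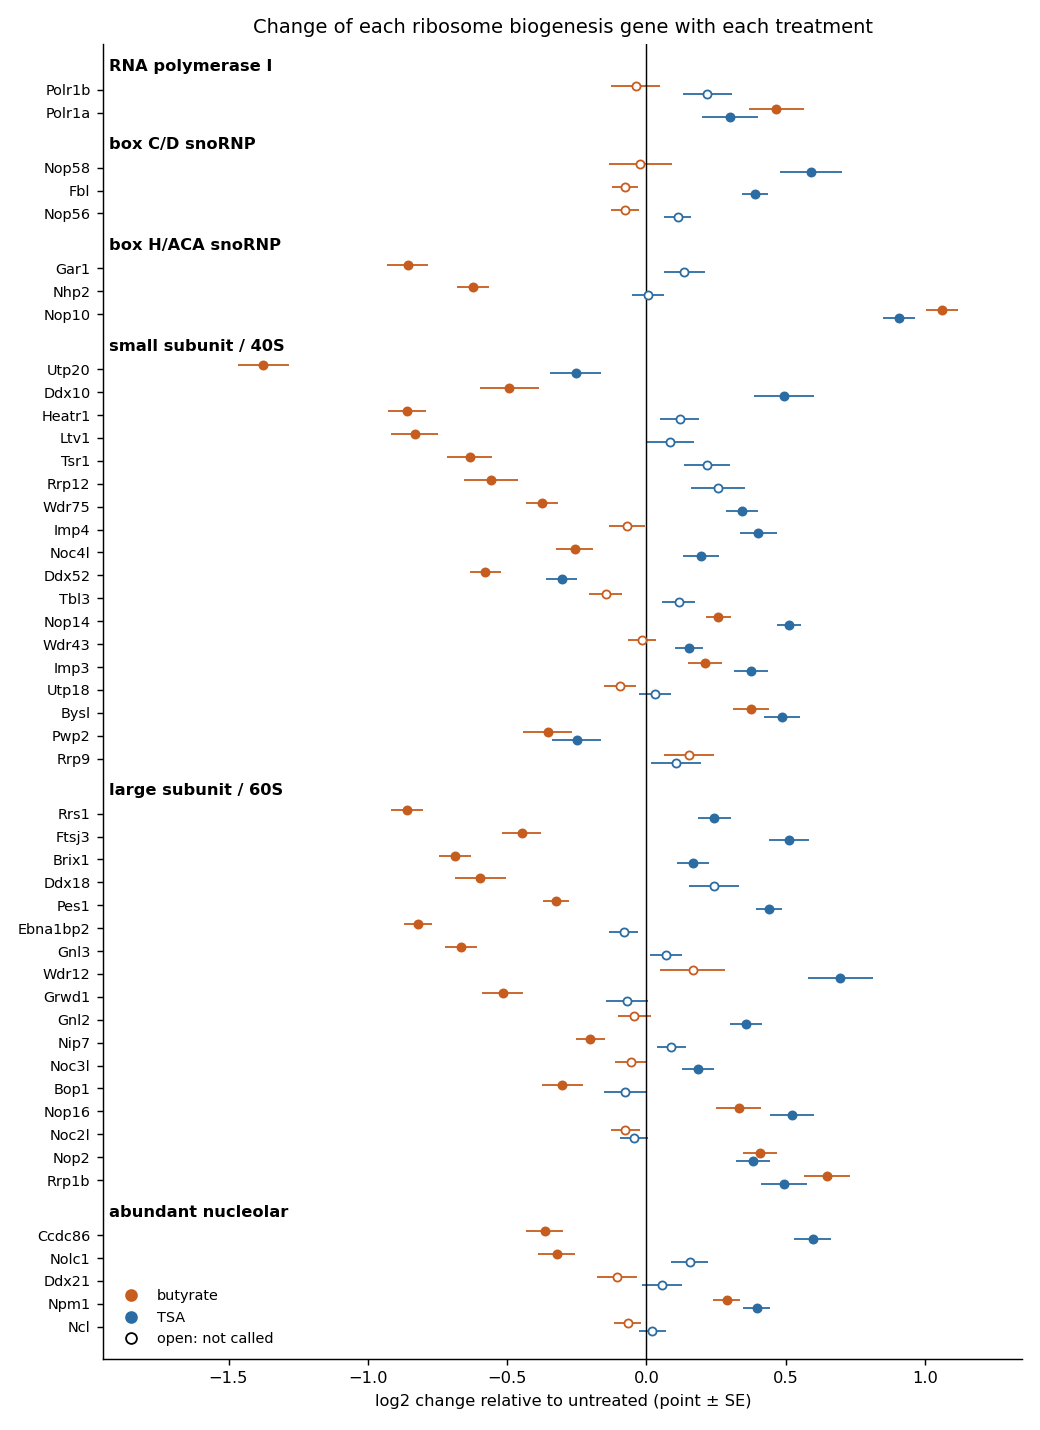
Log2 change relative to untreated cells (horizontal axis, point ± SE, n = 3 arrays per group) of the 48 genes, ordered by role, for butyrate (orange, upper point) and TSA (blue, lower point). Filled points passed an adjusted p of 0.05. Most butyrate points lie left of the TSA point of the same gene, with Utp20 lowest at -1.37 and Nop10 highest at 1.06 with butyrate; on the hybridization spike-in scale all butyrate points move left by 0.42.

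The last 5 genes were grouped as abundant nucleolar proteins, although Ccdc86 and Nolc1 had mean levels of 7.60 and 7.55, below the list median of 7.88. On the probe sets used, 2 of the 5 (Ncl and Ddx21) were not called in any comparison and 1 (Npm1) rose with both treatments. Ncl, or nucleolin, which binds precursor RNA and ribosomal DNA, had log2 levels of 11.32, 11.26 and 11.27 with butyrate, 11.32, 11.35 and 11.44 with TSA and 11.35, 11.33 and 11.38 in untreated cells. The butyrate arrays lay just below the others, TSA and untreated overlapped, and this probe set was not called in any comparison (log2 differences of -0.07 ± 0.049 and 0.02 ± 0.049). Further probe sets of Ncl at mean levels of 9.71 and 6.77 fell with butyrate, by -0.24 and -0.28 (limma adjusted p = 0.0392 and 0.00779 over all probe sets). Another, at 8.62, was not called (-0.05). Npm1, the chaperone nucleophosmin, had log2 levels of 12.07, 12.10 and 12.05 with butyrate, 12.15, 12.16 and 12.23 with TSA and 11.84, 11.76 and 11.75 in untreated cells. It rose with butyrate (0.29 ± 0.048, limma adjusted p = 0.000453) and with TSA (0.40 ± 0.048, limma adjusted p = 5.23e-05), and its difference between butyrate and TSA was not called (-0.11 ± 0.048); on the hybridization spike-in scale its butyrate difference turned to -0.13.

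Ccdc86 and Nolc1 of this group fell with butyrate. Ccdc86, the homologue of a yeast 60S factor (chr19:10941481-10949266), had log2 levels of 7.18, 7.05 and 7.26 with butyrate, 8.06, 8.10 and 8.20 with TSA and 7.48, 7.59 and 7.50 in untreated cells. The groups were far apart: Ccdc86 fell with butyrate (-0.36 ± 0.066, limma adjusted p = 0.000823) and rose with TSA (0.60 ± 0.066, limma adjusted p = 2.69e-05). Nolc1, a chaperone of snoRNPs, fell with butyrate (-0.32 ± 0.068, limma adjusted p = 0.00212) and was not called with TSA (0.16 ± 0.068). Ddx21, a helicase of RNA polymerase I transcription, was not called with either (-0.11 ± 0.071 and 0.06 ± 0.071 on the log2 scale).

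Further probe sets, which the choice by level had left out, give a second reading of 28 of the genes. Of these 37 probe sets, 17 were lower and 2 higher with butyrate than with TSA (limma, adjusted over 20380 probe sets), where 17.7% of all probe sets were lower and 12.5% higher. All 17 that were called together with the probe set used had the same direction. The second probe sets of Ccdc86, Pes1 and Ddx10 gave log2 differences between butyrate and TSA of -0.93, -0.78 and -0.64, each called, while those of Brix1 (-0.30) and of Imp4 (-0.11), both dim, were not. The 2 higher ones both belong to Polr1a (0.34 and 0.34). Against untreated cells, 15 fell and 9 rose with butyrate (23.8% and 30.4% of all probe sets) and 2 fell and 13 rose with TSA (19.8% and 24.1%). A pair of probe sets opposed the one used with butyrate, both dimmer: those of Heatr1 (0.22, at a mean level of 4.97) and Nip7 (0.19, at 6.58).

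**Figure D4:**
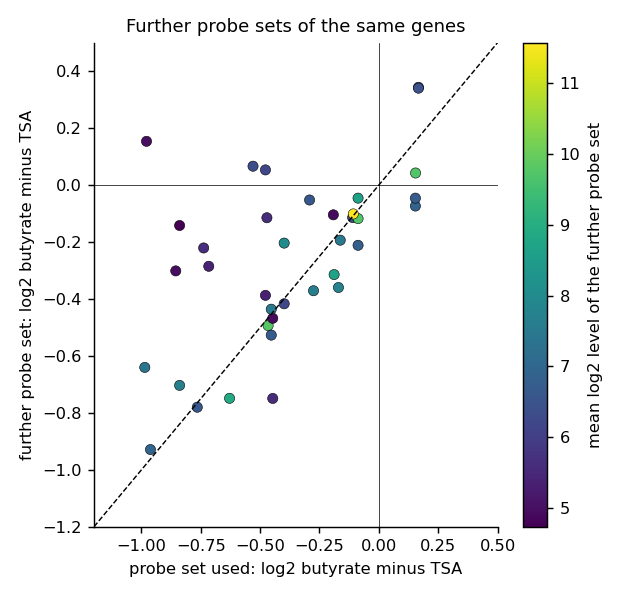
Log2 difference between butyrate and TSA for each of the 37 further probe sets (vertical axis) against that of the probe set used for the same gene (horizontal axis), coloured by mean log2 level. Points on the dashed line give equal differences. Most points lie below 0 on both axes, and the points far above the line are mainly dim probe sets; the Polr1a pair lies above 0 on both axes.

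The array also carries 3 control probe sets for 18S ribosomal RNA, the RNA of the 40S subunit. Its 3′ probe set had log2 levels of 10.93, 10.93 and 10.75 with butyrate, 10.32, 10.38 and 10.43 with TSA and 10.35, 10.16 and 10.21 in untreated cells. In the middle of the RNA the levels were 11.50, 11.60 and 11.42, then 10.91, 10.82 and 10.75, and 10.92, 10.50 and 10.36 in the same order. The butyrate arrays lay above every other array at all 3 probe sets, by 0.63 at the 3′ end, 0.91 in the middle and 0.72 at the 5′ end over untreated cells on average, and the exact two-sided permutation p was 0.1 each time, the smallest that 3 arrays against 3 allow. With TSA the differences were 0.14, 0.23 and 0.20 in the same order (exact two-sided permutation p = 0.2, 0.4 and 0.5). The hybridization spike-ins were higher by 0.42 on the same butyrate arrays, and the labelling primer is not known from the labels; the part of either in this difference was not tested.

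Genes of the MYC network moved in both directions. Of 15 measured genes of the MYC network, 3 rose and 5 fell with butyrate, or 20% and 33.3%, against 33.6% and 24.8% of all genes. With TSA 6 rose and 4 fell, or 40% and 26.7%, against 26.3% and 21.0%. Myc averaged 6.84 ± 0.08 with butyrate, 6.99 ± 0.05 with TSA and 6.87 ± 0.06 in untreated cells (SD, n = 3 log2 levels each) and was not called in any comparison (-0.15 ± 0.057 between butyrate and TSA, limma adjusted p = 0.0708). Max, its dimer partner, averaged 8.17 ± 0.09 with butyrate, 8.46 ± 0.06 with TSA and 8.05 ± 0.04 in untreated cells, and rose with TSA (0.41 ± 0.061, limma adjusted p = 0.000212). Fubp1, which activates Myc transcription, fell with butyrate (-0.45 ± 0.060) and rose with TSA (0.31 ± 0.060). Mxd1, which competes with Myc for Max, fell with both (-0.42 ± 0.081 and -0.61 ± 0.081), and Fbxw7, which marks Myc protein for destruction, rose with both (0.82 ± 0.069 and 0.72 ± 0.069) on the log2 scale.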

How the data were processed

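Gene expression was measured on 9 Affymetrix arrays, 3 per group. The authors deposited log2 expression values per probe set, made with robust multi-array averaging (RMA) per the submitters' processing notes; the RMA version is not given in the sources used here. RMA makes the distributions of the arrays alike, so a shift shared by most genes is removed. Of 22690 probe sets, 20380 carry exactly 1 gene symbol in the platform annotation, and the brightest probe set of each of 12393 genes was used. Differences were tested by moderated linear models (limma version 3.58.1, R version 4.3.3) fitted to all 9 arrays at once (6 residual degrees of freedom), adjusted by Benjamini-Hochberg over all 12393 genes and called at an adjusted p under 0.05. The procedure was tested on simulated data. The 18S rRNA control probe sets were compared by an exact two-sided permutation test over arrays, and motifs were counted in RefSeq promoters. Arrays of a group correlated at 0.9971 to 0.9985, and no pair was identical; the number of arrays limits the precision. The list, its roles, the other gene lists and the markers were chosen with earlier results of these data known. Genes named are 12 fixed ones, the 8 largest rises and falls per treatment among called genes with no overlap between arrays, the 5 largest differences between butyrate and TSA, genes called in opposite directions, and from other lists the 3 largest called changes with Myc, Max, Ubtf, Rrn3 and Tcof1; the remaining members of each role named for completeness were chosen after their values were seen. Alternatives covered the replicate block, fits of 2 groups only, the eBayes trend, dim genes, quantile normalization, spike-in scaling, the mean of all probe sets and leaving out each array.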

Additional observations from a re-analysis of the deposited data

Results flagged for a closer look

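On the probe sets used, 8 genes were called higher with TSA and lower with butyrate, relative to the same untreated arrays. All were lower with butyrate than with TSA, a direction that their selection by opposite calls fixes, so no test of it is given. The log2 differences between butyrate and TSA were -1.10 for Rrs1, -0.99 for Ddx10, -0.96 for Ccdc86 and -0.96 for Ftsj3. They were -0.86 for Brix1, -0.76 for Pes1, -0.72 for Wdr75 and -0.45 for Noc4l. Second probe sets of Ddx10 and Brix1 were not called against untreated cells with either treatment. That of Pes1 was called only with TSA, and those of Wdr75 and, at its dimmer further probe set, Noc4l only with butyrate. Both calls held for the second probe set of Ccdc86 and the brighter further one of Noc4l.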

How the results depend on the processing

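Over 17 alternatives, 9 of which left out 1 array each, 23 of the 24 falls with butyrate and 29 of the 34 genes lower with butyrate than with TSA kept their call in all, against 11 of 24 rises with TSA, 1 of 9 rises with butyrate and 0 of 3 falls with TSA. The 2 spike-in scalings lower every butyrate difference from untreated cells, by 0.42 and 0.29. They favour falls over rises with butyrate by construction, so these shares do not rank the falls as sounder. Of the butyrate rises, Nop10 kept its call in all. Nop14, Bysl, Nop2, Nop16 and Npm1 kept theirs in 15 of 17, Rrp1b in 15 of 16, Polr1a in 14 of 16 and Imp3 in 13 of 17. Of 2415 checks of single genes, 2233 kept direction and call, 93 lost the call, 76 gained it and 13 changed sign. Scaling to the hybridization spike-ins gave 2 members higher and 39 lower with butyrate (median -0.59; -0.82 against TSA), with 932 genes higher and 8417 lower with butyrate, 93 higher and 10047 lower than with TSA; the share of calls that were higher was 9.97% with butyrate and 0.917% against TSA, where the deposited scale gave 57.5% and 44.2%. Against untreated cells this scaling reversed Nop14 (-0.16), Rrp9 (-0.26), Imp3 (-0.21), Bysl (-0.0394), Nop2 (-0.00655), Nop16 (-0.0843) and Npm1 (-0.13), and against TSA it reversed Nop10 (-0.25), Rrp9 (-0.36), Nop2 (-0.37) and Rrp1b (-0.25). Poly-A spike-in scaling gave 11 members higher and 0 lower with TSA, 1 higher with butyrate, medians of -0.46 (butyrate minus untreated) and -0.70 (butyrate minus TSA), 1604 genes higher and 1597 lower with TSA, 828 higher with butyrate and 59 higher with butyrate than TSA, and reversed Nop14 (-0.0270) and Imp3 (-0.0758) with butyrate. The cause was not tested. Fits of 2 groups only gave 1 member lower with TSA; that fit, the eBayes trend, genes above the median level (Nop10) and the mean of probe sets (Polr1a) each gave 1 member higher with butyrate than with TSA. Genes above the median level also gave 1 member lower with TSA, medians of -0.11 and -0.45, and 2472 genes higher with butyrate and 1284 higher than with TSA. Quantile normalization gave medians of -0.14 and -0.37, and the mean of probe sets -0.28 against TSA. Leaving out 1 array gave 21 to 27 members higher and 1 to 3 lower with TSA (1 without TSA replicate 1, TSA replicate 2 or untreated replicate 3), 8 to 10 higher and 24 to 25 lower with butyrate, and 0 to 1 higher (Nop10, without untreated replicate 1 or 3) and 31 to 35 lower with butyrate than TSA; medians were 0.18 to 0.22, -0.20 to -0.17 and -0.45 to -0.36. Over all genes it gave 2965 to 3290 higher and 2366 to 2598 lower with TSA, 3685 to 4149 and 2874 to 3056 with butyrate, and 1396 to 2009 and 2001 to 2474 for butyrate minus TSA. Replicate numbers did not pair the arrays: same-numbered arrays' deviations correlated at -0.12 to 0.21. With the replicate block, 26 members were higher and 3 lower with TSA, 9 and 24 with butyrate, and 0 and 33 for butyrate minus TSA. Signal limits dim genes such as Rrp12 and Polr1b.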

Other observations

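Related lists outside ribosome assembly were counted in the same way. Of 26 measured exosome and RNA nuclease genes, 13 were lower and 2 higher with butyrate than with TSA, where 20.0% of all genes were lower and 15.9% higher; 4 rose and 9 fell with butyrate, and 9 rose and 4 fell with TSA. Pop5, a subunit shared by RNase P and RNase MRP, rose by 1.19 ± 0.052 with butyrate and 1.11 ± 0.052 with TSA on the log2 scale, and Pop7, another such subunit, fell with both treatments, with log2 differences of -0.98 ± 0.058 and -0.86 ± 0.058. Exosc5, a core exosome subunit, rose by 0.60 ± 0.077 and 0.87 ± 0.077. RNA polymerase III makes 5S ribosomal RNA and transfer RNAs. Of 15 measured genes of this machinery, 6 were lower and 1 higher with butyrate than with TSA. With butyrate 3 rose and 5 fell (33.6% and 24.8% of all genes), and with TSA 5 rose and 4 fell (26.3% and 21.0%). Polr3gl, an alternative subunit, rose by 1.21 ± 0.075 with butyrate and 0.89 ± 0.075 with TSA, while Polr3a, the largest subunit, had log2 differences of -1.01 ± 0.072 and -0.28 ± 0.072. Maf1, a repressor of this polymerase, fell with both (-0.64 ± 0.052 and -0.39 ± 0.052).

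Defects in ribosome production are known to act on p53. A list on nucleolar stress and p53, which shares Nop53 with the large-subunit factors, had 11 measured genes. Of these, 4 were lower and 4 higher with butyrate than with TSA (20.0% and 15.9% of all genes). With butyrate 3 rose and 5 fell (33.6% and 24.8%), and with TSA 2 rose and 5 fell (26.3% and 21.0%). Zmat3 rose with both treatments (0.28 ± 0.076 with butyrate and 0.86 ± 0.076 with TSA), Mdm2, the ligase that degrades p53, fell with both (-0.70 ± 0.045 and -0.37 ± 0.045), and Pmaip1, a cell death protein, fell with both (-0.22 ± 0.042 and -0.63 ± 0.042) on the log2 scale. Butyrate and TSA share the untreated arrays in these values.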
